A study of Mus musculus with 2 samples.

Results

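The genes described here are the enzymes that make cholesterol from acetyl-CoA, with the sterol regulatory element-binding proteins (SREBPs), the proteins that control SREBPs, and a few sterol carriers and sensors. They were taken by symbol from a list of 28 genes. All 28 are among the 46095 genes of the count table, and all 28 passed the filter of at least 10 counts summed over both libraries, as did 17356 genes in all. Their counts ranged from 752 to 98008 per library. The list holds 19 synthesis enzymes, 5 genes of SREBP control and 4 genes of sterol transport and sterol sensing.

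RNA was sequenced in 1 library from C3H10 cells transfected with an antisense oligonucleotide (ASO) against MALAT1 and in 1 library from cells transfected with the negative control ASO (NC), each at 100 nM. C3H10 is a mouse mesenchymal line, labelled as strain C57BL/6, that forms fat cells after induction, and ASOs are short strands used to have a matching RNA cleaved. Cells of both groups were transfected, grown to confluence, induced with isobutylmethylxanthine, dexamethasone, troglitazone and insulin for 2 days, and kept in insulin until differentiation day 6. The sequence of the MALAT1 ASO used for these libraries is not given in the sources used here, and the RNA is that of whole cultures. Totals were 58147539 counts for control and 61653549 for knockdown, and Malat1 fell from 170402 to 45396 counts, or 24.7% of control after scaling.

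Cholesterol synthesis runs from acetyl-CoA through mevalonate to the isoprenoid farnesyl diphosphate, then to squalene, which is closed to lanosterol and trimmed to cholesterol. SREBPs are transcription factors held in the membrane of the endoplasmic reticulum by Scap and Insig proteins when sterols are plentiful. When sterols are scarce, Scap escorts them to the Golgi, where they are cut and released to switch on the genes of the pathway. In fat cells Srebf1 is known from differentiation and from fatty acid synthesis, and fat tissue is a major store of free cholesterol.

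The promoters of these genes are shown because known SREBP sites lie close to the start of transcription, often beside the CCAAT box of the factor NF-Y. Windows of 250 bases before the start were read from RefSeq (GRCm38.p6), which gave 31 windows for 23 of the 28 members. For some members the RefSeq start differs from that of the GENCODE M21 annotation. The window of Tm7sf2 lies wholly within the gene as GENCODE places it. The windows of Cyp51, Idi1 and Msmo1, for example, reach into the gene, and their CCAAT matches lie in that part. Such matches are counted in the shares below. The SREBP site was searched on both strands as TCACNCCAC, a strict form that misses sites with other letters. This form was found in 1 member, Hmgcs1, or 4.35% of the 23. It was in 1.32% of the 11502 tested genes with a window and 1.05% of all 32851 windows. A looser form, TCACNCNAC, which includes every match of the first, was also found in Nsdhl. It was thus in 8.7% of the 23 members, 2.77% of the tested genes with a window and 2.26% of all windows. CCAAT, read on both strands, was found in 20 of the 23 members (87%) and in 40.2% of the tested genes. Counted by window, which gives a gene with several windows no better chance of a match, it was in 67.7% of the members' windows and 33.8% of all windows. These matches describe letters only, and no binding was measured. Below are the window of Hmgcs1, which holds the SREBP letters 137 bases before the start, that of Mvk, which holds the most CCAAT boxes (5), and those of Cyp51 and Insig1, the members with the largest fold changes. Capitals mark TCACNCCAC and CCAAT or its reverse, ATTGG, and each window is printed 5′ to 3′ on the strand of its gene. They lie at chr13:119690101-119690350 (plus strand), chr5:114444019-114444268 (plus strand), chr5:4104698-4104947 (minus strand) and chr5:28071162-28071411 (plus strand).
Hmgcs1: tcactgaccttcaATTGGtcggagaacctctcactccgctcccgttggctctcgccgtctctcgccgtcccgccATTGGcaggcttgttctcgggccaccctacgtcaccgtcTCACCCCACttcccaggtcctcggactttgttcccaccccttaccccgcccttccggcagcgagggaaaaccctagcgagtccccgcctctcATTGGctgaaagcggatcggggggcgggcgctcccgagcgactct
Mvk: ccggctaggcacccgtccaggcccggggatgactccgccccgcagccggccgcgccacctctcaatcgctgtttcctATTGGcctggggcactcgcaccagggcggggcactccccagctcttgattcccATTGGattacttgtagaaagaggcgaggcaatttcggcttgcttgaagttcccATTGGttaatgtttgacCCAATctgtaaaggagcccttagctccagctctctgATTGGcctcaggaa
Cyp51: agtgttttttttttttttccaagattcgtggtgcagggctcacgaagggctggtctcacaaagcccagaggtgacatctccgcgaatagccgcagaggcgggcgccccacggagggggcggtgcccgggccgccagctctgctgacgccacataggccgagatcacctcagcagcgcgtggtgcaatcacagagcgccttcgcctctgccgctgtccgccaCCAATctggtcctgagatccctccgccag
Insig1: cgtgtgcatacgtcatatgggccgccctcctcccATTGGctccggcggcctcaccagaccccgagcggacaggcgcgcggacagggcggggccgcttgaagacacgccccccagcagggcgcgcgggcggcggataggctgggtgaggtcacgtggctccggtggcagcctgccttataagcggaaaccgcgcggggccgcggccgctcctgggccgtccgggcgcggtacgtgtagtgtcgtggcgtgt

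Most of these genes were lower in MALAT1-knockdown cells, and so were 18 of the 19 synthesis enzymes. The 19 enzymes together went from 1844 to 1214 CPM (counts per 1000000 counts of the library, after scaling by edgeR's TMM factors), which is 65.8% of the control level. Each gene was tested with an exact binomial test of its counts, adjusted by Benjamini-Hochberg over the 17356 genes, at an adjusted p under 0.05. By this test 25 of the 28 members (89.3%) were lower, where 24.2% of all genes tested were, and 1 member was higher, where 24.6% were. With a change of at least 1.5-fold added, 9 members (32.1%) were lower against 7.44% of genes, and 0 were higher against 4.67%. With at least 2-fold, 2 members (7.14%) were lower against 4.24% of genes, and 0 were higher against 2.47%. The log2 ratio of knockdown to control, after scaling, had a median of -0.42 over the members and 0.00 over all genes tested. No replicate library was analysed, so the test sets 1 library against 1 other and not condition against condition, and its 95% intervals cover counting error only. In RNA of whole cultures, fewer cells of a type and less RNA per cell cannot be told apart.

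**Figure D1:**
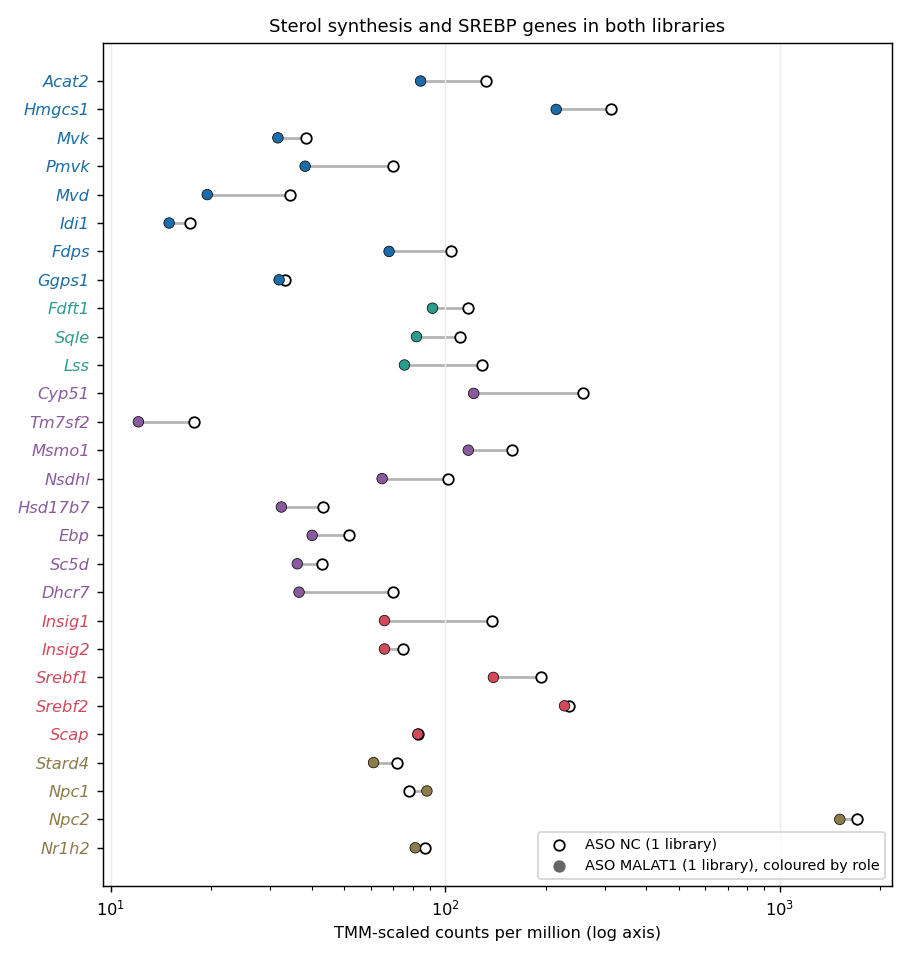
Levels in CPM, scaled by TMM factors, on a log axis for the 28 members in the control library (open circles) and the MALAT1-knockdown library (filled circles, coloured by role). The filled circle lies left of the open one for every gene except Npc1, and the gap is widest for Cyp51 and Insig1.

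The first enzymes, from acetyl-CoA to the isoprenoids, were unevenly lower. Acat2, the thiolase that joins acetyl-CoA units, had 7658 control counts and 5247 knockdown counts, a log2 ratio of -0.65 (95% interval -0.70 to -0.60). Hmgcs1, which makes HMG-CoA, had 18116 and 13345 counts, a log2 ratio of -0.55 (-0.58 to -0.51). The next member along the pathway was lower by less: Mvk, the kinase that adds the first phosphate to mevalonate, had 2216 and 1964 counts and a log2 ratio of -0.28 (-0.37 to -0.19). The kinase and the decarboxylase that follow Mvk were lowered the most of this stretch. Pmvk had 4020 and 2369 counts, which left 54.7% of the control level (52.0% to 57.6%). Mvd had 1982 and 1208 counts, or 56.6% (52.7% to 60.8%). The isomerase at the next step was lower by less. Idi1, which makes the reactive isomer of isopentenyl diphosphate, had only 998 and 929 counts, a log2 ratio of -0.21 (-0.34 to -0.08). Fdps, which builds farnesyl diphosphate, had 5992 and 4223 counts, a log2 ratio of -0.61 (-0.67 to -0.55).

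Ggps1, which stands on the side branch from farnesyl to geranylgeranyl diphosphate, did not pass the test. It had 1919 control counts and 1981 knockdown counts, a log2 ratio of -0.06 (95% interval -0.15 to 0.03). The ratio of Fdps to Ggps1 counts went from 3.12 in the control library to 2.13 in the knockdown library. On the log2 scale Fdps minus Ggps1 is -0.55, with a 95% interval from -0.66 to -0.44, and this difference does not depend on how the libraries are scaled. Of 11 other enzymes that use isoprenoids, such as the farnesyl and geranylgeranyl transferases, 4 were lower and 1 was higher by the test without a fold threshold, with a median log2 fold change of -0.02. The lowest of them was Pdss1, which builds the tail of coenzyme Q, with 700 and 599 counts and a log2 ratio of -0.33 (-0.49 to -0.17). Nus1, which is needed to make dolichol and had the most counts of this list, had a log2 ratio of 0.03 (-0.01 to 0.08).

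All 3 enzymes between farnesyl diphosphate and lanosterol were lower. Fdft1, squalene synthase, had 6774 control counts and 5694 knockdown counts, a log2 ratio of -0.36 (95% interval -0.41 to -0.31). Sqle, squalene epoxidase, had 6393 and 5101 counts, a log2 ratio of -0.43 (-0.49 to -0.38). Lss, which closes the ring to lanosterol, was the lowest, with 7448 and 4695 counts and a log2 ratio of -0.77 (-0.82 to -0.72). The distance between Sqle and Lss, 0.34 (0.26 to 0.42), was several times that between Fdft1 and Sqle, 0.07 (0.00 to 0.15), whose interval only just excluded 0.

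**Figure D2:**
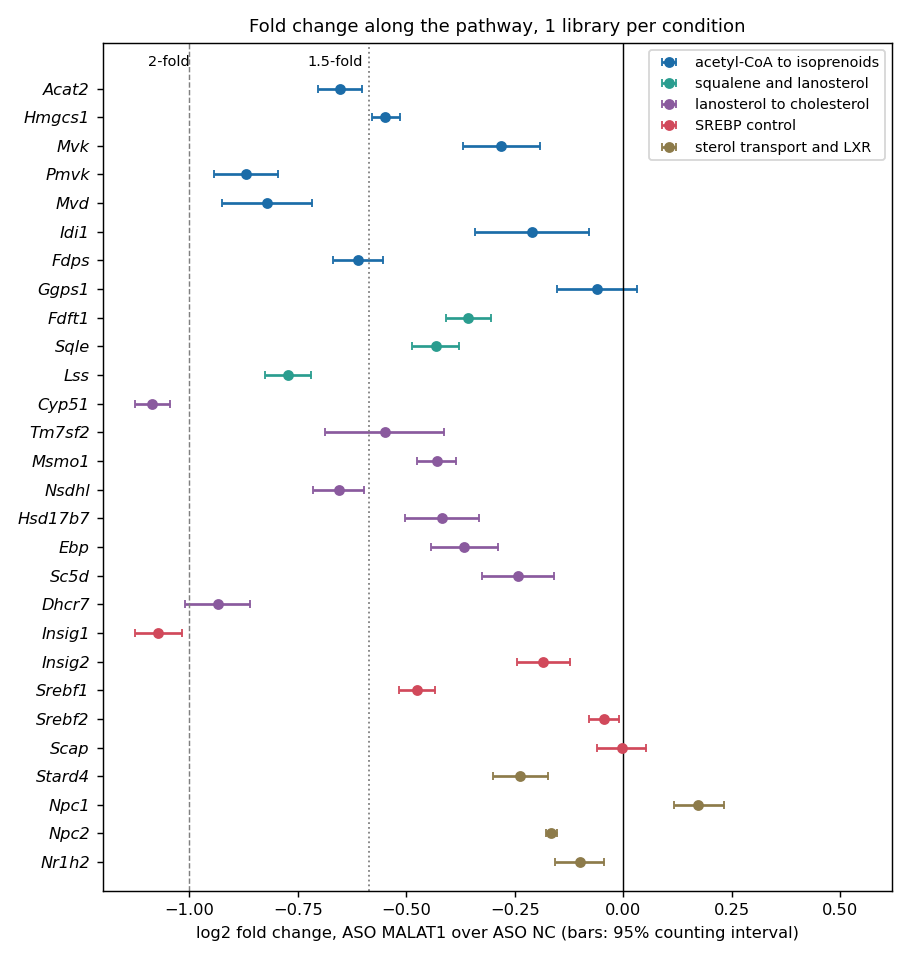
Log2 fold change of each member in MALAT1-knockdown over control cells, ordered along the pathway and coloured by role, with 95% Clopper-Pearson intervals that cover counting error only (1 library per condition). Dashed and dotted lines mark changes of 2-fold and 1.5-fold. Cyp51 and Insig1 lie beyond the 2-fold line, and the intervals of Ggps1 and Scap include 0.

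Among the enzymes that turn lanosterol into cholesterol, the first and the last of the members were the lowest. Cyp51, the demethylase that acts on lanosterol, went from 14897 counts in control cells to 7560 in knockdown cells, a log2 ratio of -1.09 (95% interval -1.13 to -1.04), or 47.1% of control. It was the only enzyme past 2-fold, and it ranked 53rd from the lowest among the 8251 genes with a mean of at least 1000 counts. Dhcr7, the reductase that turns 7-dehydrocholesterol into cholesterol, had 4033 and 2272 counts, a log2 ratio of -0.93 (-1.01 to -0.86). Nsdhl, a dehydrogenase of the demethylation steps, had 5890 and 4026 counts, or 63.5% of the control level (61.0% to 66.1%).

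The other enzymes of this stretch were lower by less than Nsdhl. Tm7sf2, a sterol reductase, had 1023 and 752 counts, which makes its interval wide at -0.69 to -0.41 around a log2 ratio of -0.55. Msmo1, the methyl oxidase, had 9122 and 7288 counts and a log2 ratio of -0.43 (-0.47 to -0.39). Hsd17b7, the ketoreductase of the same steps, had 2496 and 2012 counts and a log2 ratio of -0.42 (-0.50 to -0.33). The intervals of these 3 genes overlap. For Ebp, the sterol isomerase, with 2977 and 2487 counts, the log2 ratio was -0.37 (-0.44 to -0.29). Sc5d, the desaturase just before Dhcr7, was the least lowered of these 8 genes, with 2467 and 2245 counts and a log2 ratio of -0.24 (-0.33 to -0.16). The ratio of Sc5d to Dhcr7 counts was 0.612 in control and 0.988 in knockdown, the widest difference between neighbours along the pathway at 0.69 (0.58 to 0.80). Lbr, a nuclear envelope protein with the same reductase activity as Tm7sf2, was higher, with 1845 and 2434 counts and a log2 ratio of 0.29 (0.20 to 0.38). Lbr is not one of the 28 genes and was named after its values were seen.

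The change thus differed from step to step by more than counting error. Between the 18 enzymes of the main line there are 17 pairs of neighbouring members, and the 95% interval of the difference in log2 fold change excluded 0 in 14 of them. It included 0 for Pmvk and Mvd (-0.18 to 0.08), for Tm7sf2 and Msmo1 (-0.27 to 0.02), and for Hsd17b7 and Ebp (-0.17 to 0.06). When all 28 members were instead ordered by log2 fold change, only 5 of the 27 neighbours in that order differed, so neighbours such as Dhcr7 and Pmvk, or Mvd and Lss, cannot be ordered. How often pairs of other genes differ was not counted, so 14 of 17 pairs does not set this pathway apart. Well-covered genes often passed the test. Of the 8251 genes with a mean of at least 1000 counts, 30.2% were lower and 35.3% higher without a fold threshold. The spread between cultures could not be measured.

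**Figure D3:**
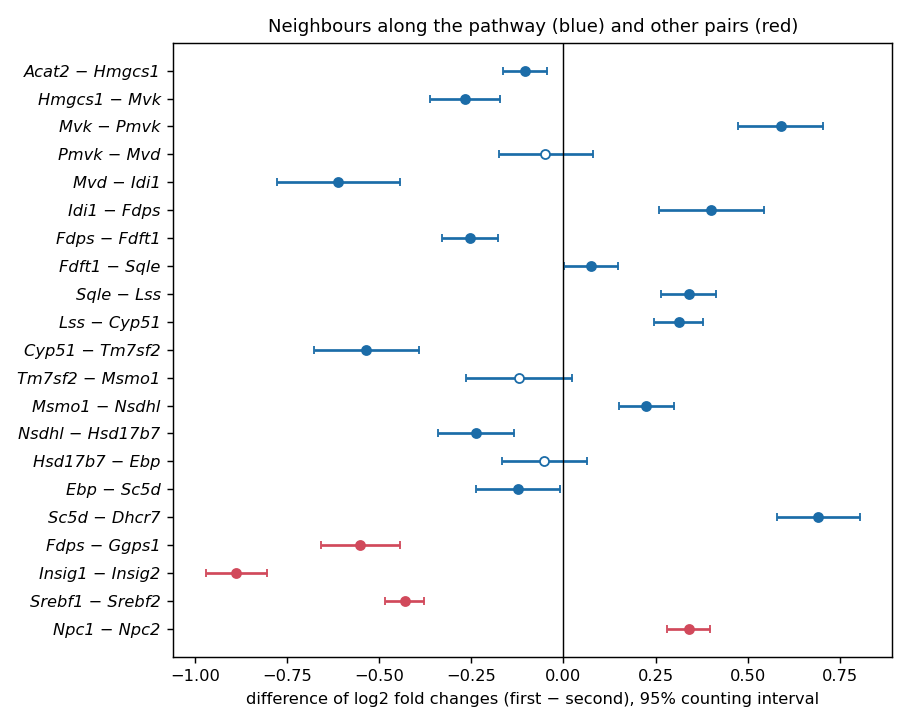
Difference of the log2 fold changes of 2 members (first minus second) with its 95% conditional exact interval, for 17 pairs of neighbours along the pathway (blue) and 4 other pairs (red). Open circles mark the 3 pairs whose interval includes 0. The difference was widest for Insig1 minus Insig2, at -0.89.

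In the SREBP control group, one member of each pair of related genes was much lower than the other. Insig1, the Insig protein whose gene SREBPs themselves switch on, went from 7985 counts in control cells to 4091 in knockdown cells, a log2 ratio of -1.07 (95% interval -1.13 to -1.02). Insig2, the other protein that holds Scap in the endoplasmic reticulum, had 4316 and 4091 counts, a log2 ratio of -0.18 (-0.25 to -0.12). The ratio of Insig1 to Insig2 counts was thus 1.85 in control and 1 in knockdown, a difference of -0.89 in log2 ratio (-0.97 to -0.81). Srebf1 had 11183 and 8662 counts, a log2 ratio of -0.48 (-0.52 to -0.43). Srebf2, which drives the cholesterol genes in most cells, had 13536 and 14136 counts, a log2 ratio of -0.04 (-0.08 to -0.01) or 97.0% of control. Srebf2 passed the test under TMM scaling but not with library totals or DESeq2 size factors. Srebf1 and Srebf2 differed by -0.43 (-0.48 to -0.38). Srebf1 is read from several start sites, and these counts per gene do not separate its forms. Scap, with 4793 and 5146 counts, did not pass the test, and its log2 fold change of -0.004 (-0.06 to 0.05) was above 0 under each of the other library scalings, between 0.001 and 0.02.

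The machinery that cuts SREBPs or degrades sterol-regulated proteins showed little difference. Of 12 such genes tested, 2 were lower and 1 was higher by the test without a fold threshold, the median log2 fold change was -0.03 and the range ran from -0.21 to 0.14. Mbtps1, the protease that makes the first cut in SREBPs, had the most counts of this list, 14903 and 16380, and a log2 ratio of 0.03 (-0.002 to 0.06). Paqr3, a Golgi protein that anchors Scap, had the largest change of this list at -0.21, but with 146 and 136 counts its interval ran from -0.56 to 0.14.

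The transport and sensing genes had the median closest to 0 of the 5 roles, at -0.13. Stard4, a soluble sterol carrier, had 4155 control counts and 3795 knockdown counts, a log2 ratio of -0.24 (95% interval -0.30 to -0.17). Npc2, which hands cholesterol to Npc1 in the lysosome and was the most abundant member per kilobase of transcript at 515 CPM per kilobase in control cells, had 98008 and 94037 counts and a log2 ratio of -0.17 (-0.18 to -0.15). Npc1, the lysosomal exporter, was the only member that was higher, with 4513 and 5480 counts and a log2 ratio of 0.17 (0.12 to 0.23). These partners therefore moved apart by 0.34 (0.28 to 0.40). Nr1h2, the oxysterol receptor LXRβ, had 5034 and 5056 counts, a log2 ratio of -0.10 (-0.16 to -0.04).

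Nr1h3, the LXRα receptor, is not one of the 28 genes and was lower by more, with 1912 and 905 counts and a log2 ratio of -1.18 (-1.30 to -1.07). It was the only one of 8 tested LXR genes past 2-fold. Of these 8, 5 were lower and 0 were higher without a fold threshold, and the median was -0.34. Abca1, the cholesterol exporter and the gene with the most counts of them, had 14781 and 9448 counts and a log2 ratio of -0.75 (-0.79 to -0.71). Of 14 tested genes for sterol esterification, hydrolysis and transport, 6 were lower and 4 were higher, with a median of -0.004. Gramd1b, which carries cholesterol from the plasma membrane to the endoplasmic reticulum, was the lowest at -0.95 (-1.02 to -0.89). Lipa, the lysosomal lipase and the gene with the most counts of that list, had a log2 ratio of -0.003 (-0.04 to 0.03), which lay above 0 under the other scalings.

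**Figure D4:**
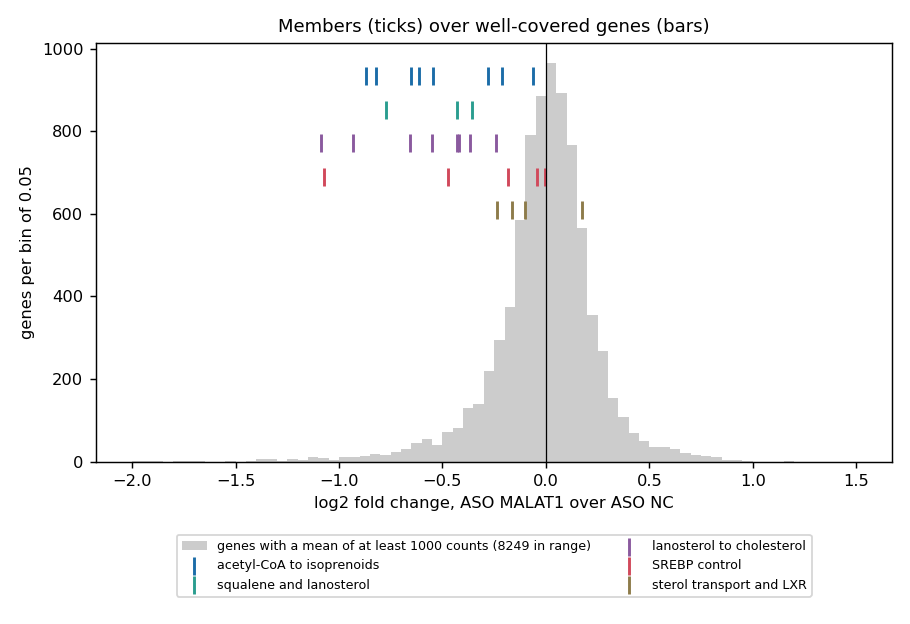
Histogram of log2 fold changes for 8249 of the 8251 genes with a mean of at least 1000 counts (grey bars, 0.05 per bin; 2 genes lie outside the axis), with the 28 members as ticks, 1 row per role. The ticks of all 19 enzymes lie below 0, and those of the SREBP control and transport groups reach to 0 and beyond it.

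The members are well covered, and the share of genes past a threshold depends on coverage, so the counts were also set against the 8251 genes with a mean of at least 1000 counts. Of the 26 members above that mean, 23 (88.5%) were lower, against 30.2% of such genes, and 1 was higher, against 35.3%. By at least 1.5-fold, 9 (34.6%) were lower against 2.84%, and 0 higher against 1.43%. By at least 2-fold, 2 (7.69%) were lower against 0.739%, and 0 higher against 0.0121%. The median log2 fold change of these genes was 0.01, with quartiles of -0.11 and 0.13. By role, the medians of the members were -0.58 from acetyl-CoA to the isoprenoids, -0.43 for the 3 steps to lanosterol, -0.49 from lanosterol to cholesterol, -0.18 for SREBP control and -0.13 for transport and sensing.

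Fatty acid genes that SREBPs also switch on stood close to the sterol enzymes. Of 14 tested, 12 were lower and 1 was higher without a fold threshold, with a median of -0.52 beside -0.55 for the 19 enzymes. Fasn, fatty acid synthase, had a log2 ratio of -1.13 (-1.15 to -1.12), Scd1, the main stearoyl-CoA desaturase of fat cells, of -1.53 (-1.54 to -1.51), and Thrsp, a lipogenic factor, of -2.16 (-2.36 to -1.97). Scd2, another desaturase and the gene with the most counts of this list, was at -0.47 (-0.49 to -0.46).

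Markers of mature fat cells moved with these genes, and further. All 12 markers tested were lower, 11 of them by at least 2-fold, with a median of -1.34 and a summed level of 7370 CPM in control cells and 2967 CPM in knockdown cells, or 40.3%. Adipoq, the adipokine adiponectin, had a log2 ratio of -1.30 and Fabp4, the fatty acid binding protein, of -1.37, while Pparg, the receptor that directs fat cell formation, was at -0.57. The other markers past 2-fold were Plin1, Cidec, Lpl, Cebpa, Retn, Cfd, Lipe, Pnpla2 and Gpd1, between -1.99 for Retn and -1.10 for Pnpla2. Every marker except Pparg had a log2 fold change below that of any member, although the nearest, Pnpla2 at -1.10 (-1.12 to -1.08), overlapped the interval of Cyp51. Of 11 tested fibroblast and preadipocyte markers, 10 were higher, with a median of 0.23 and a summed level of 110% of control, and Dlk1 was at 0 counts in both libraries. The one with the most counts, Col1a2, was at 0.21 (0.20 to 0.22). Thy1, with 108 and 163 counts, was at 0.48 (0.13 to 0.85), and Cd34, with 19 and 69 counts, was the only one past 2-fold. Of 14 widely expressed reference genes, 5 were lower and 4 were higher, with a median of -0.02. The lowest was Sdha, a mitochondrial enzyme, at -0.42 (-0.44 to -0.39), and the one with the most counts, Eef1a1, was at -0.06 (-0.06 to -0.05). The part of the fat cell share in the lower sterol genes was not tested.

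**Figure D5:**
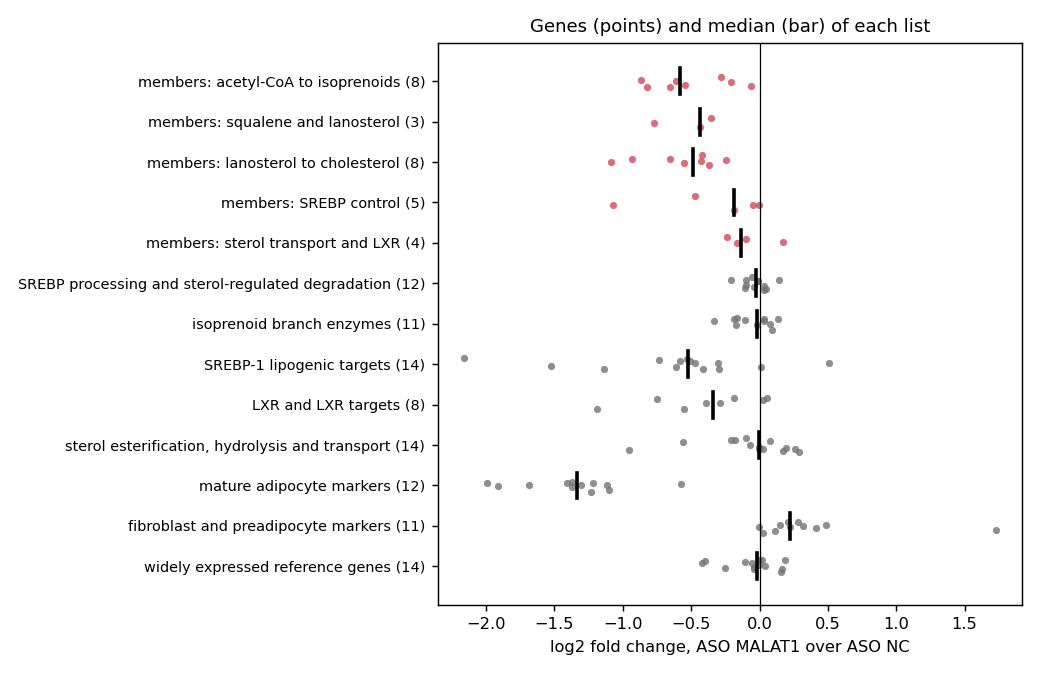
Log2 fold changes of single genes (points) and the median of each list (black bar), for the members by role (red) and the lists set beside them (grey), with the number of genes tested in brackets. The sterol enzymes and the fatty acid genes have medians between -0.58 and -0.43, the mature adipocyte markers -1.34, and the SREBP processing genes -0.03.

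The calls depend on how much single cultures vary, which these libraries cannot show. With edgeR's exact test and a preset biological coefficient of variation (BCV) of 0.1, 8 of the 28 members had an adjusted p under 0.05, and all 8 were lower: Cyp51, Insig1, Dhcr7, Pmvk, Mvd, Lss, Nsdhl and Acat2. By the same test 4.09% of all genes were lower. With a BCV of 0.2, 0 members did, against 0.547% of all genes called lower, and 5 members, all lower, had an unadjusted p under 0.05, against 6.64% of genes in either direction. The common dispersion of edgeR, a BCV of 0.171, was estimated as if both libraries were replicates of the same condition. This value therefore also holds the difference between the conditions. With it, the exact test gave 0 members an adjusted p under 0.05, against 1.13% of all genes called lower. An unadjusted p under 0.05 was reached there by 6 members, all lower, against 8.06% of genes in either direction.

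Reads of some members could be shared with other genes, since neither the annotation, the strand setting nor the treatment of reads with several matches is given in the sources used here. In the GENCODE M21 annotation of GRCm38, 11 members share exon bases with another gene, and 5 have a stretch of at least 200 bases with at least 95% identity to a transcript of another gene. The largest share was that of Fdps, with 26.7% of its exon bases in Gm43738 on the same strand. Gm43738 has no row of that name in the count table. Fdft1 shares 18.3% with Ctsb on the opposite strand, a lysosomal protease gene with 55963 and 58069 counts, far more than Fdft1 itself. Tm7sf2 shares 12.1% with Vps51 on the same strand, which had 2593 and 2752 counts. Scap shares 13.2% and Hmgcs1 12.1% with genes on the opposite strand, which likewise have no row of their name. Cyp51 shares 3.76% with Akap9, also opposite, which had 3961 and 3880 counts. Acat2 has near-identical stretches in 2 genes that differed in direction. Acat3 had 921 and 565 counts and a log2 ratio of -0.81, and Tcp1, which matches over 445 bases and had more counts than Acat2, had 13306 and 15224 counts and a log2 ratio of 0.09. The part of these genes in the members' counts was not tested. Idi1 has 2 such copies, each with 0 counts in both libraries. Over the 15 members with neither, the median was -0.37, and all 15 were lower without a fold threshold, against 24.2% of all genes tested. Ggps1, Scap and Npc1, the members that were not lower, all share exon bases with another gene and so are not among these 15.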

How the data were processed

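RNA-seq of 1 control and 1 MALAT1-knockdown library was analysed. The authors removed rRNA from total RNA, used a directional kit, and deposited whole-number counts of reads per gene symbol, without normalization. The submitters' processing notes name HISAT2 and GRCm38. The counting tool is not given in the sources used here. Duplicate reads, if they were counted, make intervals too narrow.

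Each column was matched to the sample whose title it bears. Counts were scaled with TMM (edgeR 4.0.16, R 4.3.3). A two-sided exact binomial test (scipy 1.17.1), which splits each gene's counts by the scaled sizes of the libraries, was run on the 17356 genes whose counts summed to at least 10, and its p-values were adjusted by Benjamini-Hochberg. edgeR's quasi-likelihood test and DESeq2's test need replicates and were not run. Log2 ratios (fold changes) used a prior count of 0.5, and intervals are 95% Clopper-Pearson limits. Differences between members are log2 odds ratios of their counts with conditional exact intervals. Levels per kilobase used the longest coding transcript of GENCODE M21, and copies were sought with BLAST+ 2.17.0. The test was checked on simulated counts drawn with counting error only. That check cannot show how the test behaves where cultures vary.

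The members and lists were chosen with earlier results of these data known. The pairs of members, the promoter motifs, the genes with a mean of at least 1000 counts, the common dispersion, the alternatives of the number without a fold threshold and the members without shared exons or copies were added after the data were seen. The genes named are all members, Malat1, Adipoq, Fabp4, Pparg and, per list, the genes called at 2-fold, the gene with the most counts and the one with the largest change among those with at least 100 counts. Lbr, Dlk1 and the genes that overlap or match members were added to these, and some genes that the rule names are not reported here. Alternatives were library totals, DESeq2 1.42.0 size factors, upper-quartile factors, other count filters, a prior count raised to 2, the exact test of edgeR, unadjusted p and counts divided by 4.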

Additional observations from a re-analysis of the deposited data

How the results depend on the processing

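No paired analysis was possible because each condition has 1 library, and leaving out a replicate was not possible for the same reason. Under the 3 other scalings, both other filters, the prior count of 2, unadjusted p and counts divided by 4, the number of members lower by 2-fold and by 1.5-fold was 2 and 9, as in the report. The number lower without a fold threshold, 25, was 24 with library totals and with DESeq2 size factors. Srebf2 was lost in both (adjusted p of the exact binomial test 0.307 and 0.14). With counts divided by 4 the number was 22, and Idi1, Srebf2 and Nr1h2 were lost. Of all genes, 24.2% were lower in the report, 21.8% with library totals, 22.7% with DESeq2 size factors and 10% with counts divided by 4. With edgeR's exact test the number of members lower was 8 at a BCV of 0.1 and 0 at the others. The number higher went from 1 to 0 at each of these BCVs. The 2-fold and 1.5-fold numbers were 0 with edgeR's exact test at a preset BCV of 0.2, at 0.4 and with the common dispersion. At a preset BCV of 0.4, 0 members had an unadjusted p under 0.05 either, against 1.98% of all genes. The medians of the members and of each role kept their sign, and the largest shift was to -0.37 (-0.366) over members with no shared exon or copy. Scap turned to 0.018 with library totals, 0.010 with DESeq2 size factors and 0.001 with upper-quartile factors, and Lipa to 0.020, 0.011 and 0.002. These scalings moved the median of all genes from -0.003 to at most 0.019.

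Over all genes, 736 were lower and 428 higher by 2-fold. These numbers were 405 and 169 where each library had to hold 10 counts or more, 213 and 48 with counts divided by 4, 466 and 201 with a BCV of 0.1, 95 and 22 with 0.2, 0 and 1 with 0.4, and 196 and 52 with the common dispersion. The filter on each library leaves out genes with few counts, and division by 4 leaves each gene with fewer counts. The BCV settings, preset or common, keep the fold changes and add an assumed variation to the test. The depth limits Idi1 and Tm7sf2 most among the members, both under a mean of 1000 counts.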
